A study of Mus musculus with 3 samples.

Results

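Cathepsins are the proteases of the lysosome, and microglia, the resident macrophages of the brain, carry many of them. The 10 genes described here are 9 lysosomal proteases and 1 inhibitor, and all 10 were found by symbol among the 15635 genes of the count tables. Cathepsins B, C, F, L, S and Z (Ctsb, Ctsc, Ctsf, Ctsl, Ctss and Ctsz) cleave with a cysteine in the active site, cathepsin D (Ctsd) with an aspartate and cathepsin A (Ctsa) with a serine, while legumain (Lgmn) cuts after asparagine. Cystatin C (Cst3) is a small secreted protein that blocks cysteine cathepsins and, through a separate surface, legumain. It does not act on cathepsin D or A. Lysosomal proteases are made as inactive precursors and mature in acidic compartments, so that a transcript level is not an activity.

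The libraries came from microglia of hCD33m mice, hCD33M mice and control mice, with 1 library per genotype, each a pool of a pair of mice labelled 8 weeks old on a C57BL/6 background. hCD33m and hCD33M are the short and long isoforms of human CD33, a sialic acid binding receptor, placed at the Rosa26 locus behind a floxed stop and a CAG promoter and switched on by Cx3cr1-Cre, which also acts in macrophages other than microglia. The hCD33m line came from 1 embryonic stem cell clone, and the controls are labelled wild type, and the methods define the wild-type controls of other assays as Cre carriers without the transgene but do not say this of the single-cell mice. Brains were handled on ice with inhibitors of transcription and translation, and cells were sorted as CD11b+ Cx3cr1+ with CD45 given as low in one account of the sort and as positive in the methods, before 10x Chromium 3′ sequencing. The count tables used here hold mouse genes, so human CD33 transcripts were not analysed here. Because each genotype is 1 library, genotype and library cannot be told apart, no test across animals was possible, and every interval below is a 95% interval that covers counting error only.

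The libraries held 32272657 to 40629705 unique molecular identifiers (UMIs), and cells of more than 200 and at most 8000 genes with at most 10% mitochondrial UMIs were kept, which left 6068 cells of hCD33m, 5710 of hCD33M and 5891 of control. The hCD33m library is labelled female and the others male, yet Xist had 0 UMIs in hCD33m, 0 in hCD33M and 3 in control, and the Y-linked Ddx3y stood at 94.9, 105 and 95.3 counts scaled to 1000000 UMIs (CPM), so the sex label of the library labelled hCD33m goes against its counts. Between 4 and 12 barcode sequences were shared by any pair of libraries. Clustering without the 10 genes gave 8 microglia-like clusters with 14210 cells, 1 cluster with markers of border-associated macrophages (215 cells), 1 with monocyte markers (81 cells) and 2 clusters of few UMIs that were left unnamed (3160 cells). In the microglia-like cells all 10 listed microglial markers were detected, with a summed level of 24063 CPM in hCD33m, 26062 in hCD33M and 25387 in control. The 7 markers of border-associated macrophages summed to 8.80, 13.9 and 13.2 there, with Lyve1 at 0 in hCD33m and Lyve1 and Cd163 at 0 in hCD33M, and the 8 monocyte markers to 11.8, 9.69 and 10.6.

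Windows around the starts of 4 of these genes are shown because the genes mark the ends of the patterns described below. Ctsd led the proteases in microglia, Cst3 exceeded all of them, Ctss led in monocyte-like cells, and Ctsc was the protease that differed most between libraries. The sequences are from RefSeq on GRCm38.p6, run 5′ to 3′ on the strand of the gene, and span 250 bases before to 50 bases after a gene start. Capitals mark matches on either strand to CACGTG, the E-box core bound by TFEB and its relatives, which in human cells govern many lysosomal genes, to GAGGAA, a core of sites for the macrophage factor PU.1, or to GAAA followed by any 2 bases and GAAA again, a core of interferon-stimulated response elements.
Ctsd (chr7:142387778-142388077, minus strand): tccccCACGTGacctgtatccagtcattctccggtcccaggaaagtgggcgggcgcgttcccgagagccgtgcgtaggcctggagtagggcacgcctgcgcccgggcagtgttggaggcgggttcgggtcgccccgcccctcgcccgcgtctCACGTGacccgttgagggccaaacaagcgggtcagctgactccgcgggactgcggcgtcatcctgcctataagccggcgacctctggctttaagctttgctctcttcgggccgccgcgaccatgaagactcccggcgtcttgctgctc
Cst3 (chr2:148875463-148875762, minus strand): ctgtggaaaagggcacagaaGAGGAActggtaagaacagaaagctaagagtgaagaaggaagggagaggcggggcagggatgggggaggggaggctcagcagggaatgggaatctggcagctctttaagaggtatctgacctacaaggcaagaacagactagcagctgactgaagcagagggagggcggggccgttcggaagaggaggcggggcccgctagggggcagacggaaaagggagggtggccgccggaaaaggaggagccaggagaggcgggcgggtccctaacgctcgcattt
Ctss (chr3:95526536-95526835, plus strand): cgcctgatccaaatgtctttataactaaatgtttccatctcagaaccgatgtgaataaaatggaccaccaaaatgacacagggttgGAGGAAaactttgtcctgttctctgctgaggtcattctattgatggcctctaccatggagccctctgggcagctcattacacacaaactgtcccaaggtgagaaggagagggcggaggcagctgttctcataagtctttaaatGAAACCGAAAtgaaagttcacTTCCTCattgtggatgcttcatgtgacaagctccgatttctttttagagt
Ctsc (chr7:88277835-88278134, plus strand): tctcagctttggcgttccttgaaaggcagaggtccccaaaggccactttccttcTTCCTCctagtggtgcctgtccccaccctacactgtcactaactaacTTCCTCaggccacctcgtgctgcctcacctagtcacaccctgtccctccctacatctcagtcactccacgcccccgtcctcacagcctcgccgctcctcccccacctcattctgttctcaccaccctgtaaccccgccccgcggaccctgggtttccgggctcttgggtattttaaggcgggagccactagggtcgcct

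Of the 10 genes, 9 had a window in the RefSeq table and Ctsb had none. Ctsa and Lgmn had 2 windows each, which makes 11 in all. CACGTG was present in 5 of the 11, from Ctsa, Ctsd, Ctsf, Ctsl and Lgmn, against 7.15% of all 32851 windows in the table. For Ctsa, Ctsl and Lgmn the matched window lies wholly inside the gene span given below. The other windows of Ctsa and Lgmn, which cover the start of that span, hold no match. Ctsd held it at bases 6 to 11 and 153 to 158 of its window. GAGGAA was found for Ctsc, Ctss and Cst3, against 28.3% of all windows, and the paired GAAA for Ctss alone, at bases 230 to 239, against 3.44%. The motifs share no bases with each other in the windows shown. These are matches of letters, and the data hold no measure of binding at them.

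In microglia-like cells Cst3 was the most abundant gene of all in the hCD33m and control libraries and the second in hCD33M. Its level was 52609 CPM in hCD33m, 48703 in hCD33M and 51535 in control, so that 4.87% to 5.26% of all UMIs of these cells came from this gene. Together the 10 genes took 7.50% of UMIs in hCD33m, 7.17% in hCD33M and 7.57% in control. Gene positions are given from GENCODE release 21 for mouse (GRCm38, the assembly called mm10), in which Cst3 spans chr2:148871722-148875692 on the minus strand. Each UMI tags 1 transcript end whatever the transcript's length, so that levels were compared between genes without division by length, although the ends of different genes may be captured unequally.

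**Figure D1:**
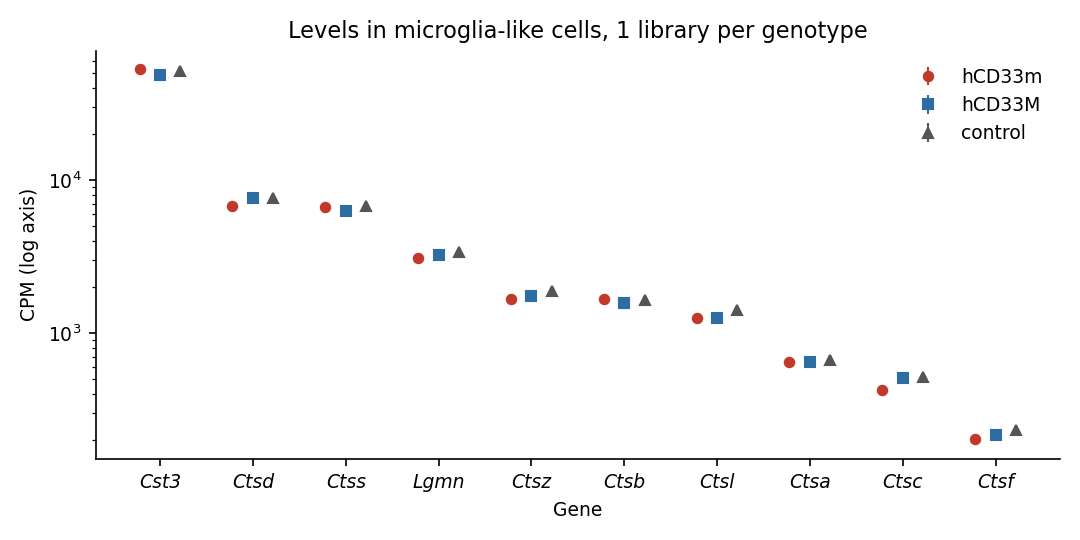
Level of each gene in microglia-like cells, as CPM on a log axis, with 1 point per library (hCD33m, hCD33M and control from left to right) and 95% Poisson intervals that are mostly smaller than the points. Cst3 stands between 48703 and 52609 and the proteases run from Ctsd to Ctsf in the same order in the 3 libraries.

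Cathepsins D and S led the proteases. Ctsd, which starts the breakdown of many proteins taken into the lysosome (chr7:142375911-142388038, minus strand), stood at 6758 CPM in hCD33m, 7605 in hCD33M and 7658 in control. Ctss, which stays active at neutral pH and trims the invariant chain of MHC class II in antigen-presenting cells (chr3:95526786-95556403, plus strand), stood at 6695, 6274 and 6757. The leading pair was nearly level in hCD33m, where Ctsd exceeded Ctss by 1.01-fold. Over the 3 libraries Ctsd made up 31.6% and Ctss 28.4% of protease UMIs. Both were among the 9 highest genes of every library.

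Legumain (chr12:102394084-102439813, minus strand) was the third protease, with 3082 CPM in hCD33m, 3214 in hCD33M and 3401 in control. It activates several cathepsins by cutting their precursors. The next 3 genes were close to each other. Ctsz, an exopeptidase that takes single residues from carboxyl ends (chr2:174427493-174439039, minus strand), had 1679, 1753 and 1878 CPM, and Ctsb, which has both endo- and exopeptidase activity (chr14:63122462-63145923, plus strand), had 1656, 1573 and 1643. Ctsz and Ctsb were the only neighbours in the order whose intervals overlapped, and only in hCD33m. Ctsl, a broad endopeptidase (chr13:64359337-64370890, minus strand), followed with 1251, 1250.2 and 1409.

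The lowest 3 proteases were Ctsa, Ctsc and Ctsf. Ctsa, which also protects lysosomal sialidase and galactosidase in a complex (chr2:164832873-164841032, plus strand), had 650.5 CPM in hCD33m, 645.1 in hCD33M and 667.9 in control. Ctsc, also called dipeptidyl peptidase I, activates serine proteases of granulocytes and lymphocytes (chr7:88278085-88310888, plus strand), and had 421.5, 511.9 and 518.8. Ctsf (chr19:4855130-4860918, plus strand) had 203.8, 215.8 and 232.9. The order of the 9 proteases was the same in each library and did not move under any other choice of cells tried. Over the pooled libraries the widest steps between neighbours were from Ctsc to Ctsf (2.22-fold), Ctss to Lgmn (2.04-fold) and Ctsl to Ctsa (1.99-fold).

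The order was less fixed between the 8 microglia-like clusters. Ctss rather than Ctsd led in 3 of them. The most marked was cluster 7, led by hemoglobin genes and after them Cst7, Vcam1 and Hcar2, where Ctss stood at 9437 CPM and Ctsd at 5882. That cluster also held the highest Ctsz of the 8, at 3004, or 170% of the level over all microglia-like cells, and the lowest Ctsc, at 376. Cluster 3, the microglia-like cluster of fewest UMIs with a median of 1796, was the highest of the 8 for 7 of the 9 proteases, with Ctsd at 11641, Ctss at 9720 and Ctsc at 747, and its protease sum was 153% of the overall level. Cluster 6, led by Tcim, Lpl and Emp3, had Ctss at 8204 and Ctsc at 656, or 137% of the overall level. Cluster 10, of 151 cells led by Mmp12, Ccl4 and Spp1, had Ctsb at 3520, or 217% of the overall level, which placed it next after Ctsd and Ctss, and Ctsz at 2942. Cluster 8, led by interferon-induced genes such as Rsad2, Cxcl10 and Ifit1, had Ctss at 7035 and Ctsd at 7011, with intervals that overlapped. Over the 8 clusters each protease ranged 1.63-fold (Ctss) to 2.39-fold (Ctsb) and Cst3 ranged 1.45-fold, from the highest cluster to the lowest. Without cluster 3 the proteases ranged 1.17-fold (Lgmn) to 2.39-fold (Ctsb) and Cst3 1.43-fold.

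Cst3 UMIs outnumbered those of all 9 proteases together. There were 2.35 Cst3 UMIs per protease UMI in hCD33m (95% interval 2.34 to 2.36), against 2.11 in hCD33M (2.11 to 2.12) and 2.13 in control (2.13 to 2.14). Set against the 6 cysteine cathepsins, which cystatin C can inhibit, the ratio was 4.42, 4.21 and 4.14, and with legumain added 3.51, 3.29 and 3.25. Each of these ratios was highest in hCD33m. Over single cells with at least 10 protease UMIs the median ratio was 2.30 in hCD33m, 2.03 in hCD33M and 2.05 in control, and Cst3 exceeded the protease sum in 96.3%, 91.1% and 91.9% of cells.

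The higher ratio in hCD33m was seen inside every microglia-like cluster. In neither unnamed cluster was hCD33m the highest, with an interval that overlapped that of the highest library. In cluster 0, the largest, it was 2.51 in hCD33m, 2.33 in hCD33M and 2.31 in control. In cluster 1, led by Crybb1 and Npl, the values were 2.76, 2.52 and 2.58, the highest of the 8, and in cluster 3, a cluster of few UMIs led by nuclear and mitochondrial transcripts, 1.33, 1.204 and 1.25, the lowest. In each of the 8 clusters the interval of hCD33m lay above those of hCD33M and control. The clusters are parts of the same libraries, so they do not repeat the comparison independently. The difference between libraries was smaller than that between clusters, which ran from 1.25 to 2.63 over the pooled libraries.

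**Figure D2:**
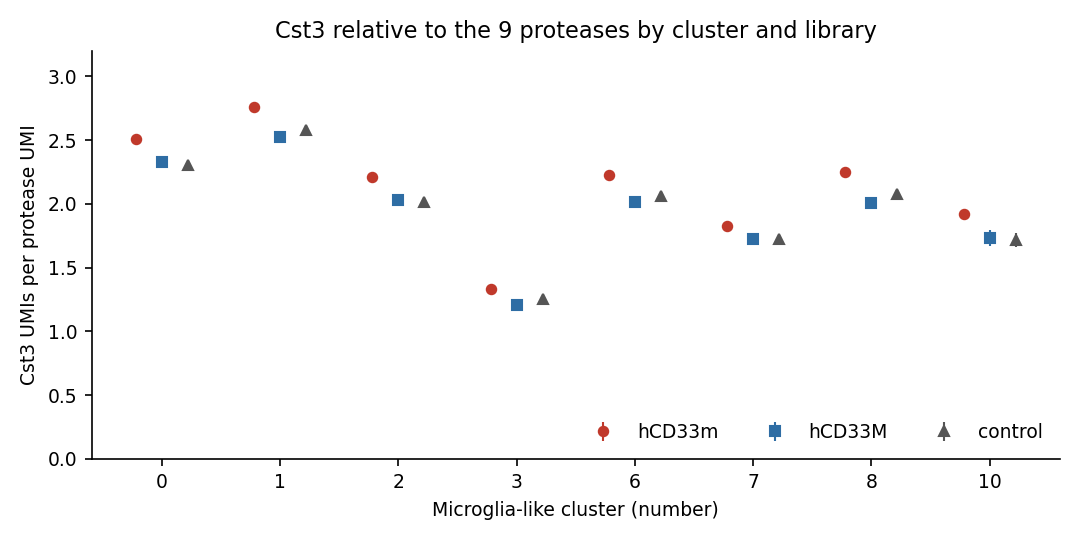
Cst3 UMIs per UMI of the 9 proteases in each of the 8 microglia-like clusters (cluster number on the horizontal axis), with 1 point per library (hCD33m, hCD33M and control from left to right) and 95% intervals for counting error. In every cluster the hCD33m point is above both others, and cluster 3 is lowest with values of 1.204 to 1.33.

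The ratio also varied with the number of UMIs per cell, and this bears on the comparison of libraries. In microglia-like cells of the pooled libraries it rose from 1.05 below 1000 UMIs to 2.43 at 4000 to 8000, then fell to 2.12 at 16000 or more. Over all cells kept it was 1.28 below 1000 UMIs. Microglia-like cells of 1000 to 2000 UMIs had 33635 CPM of proteases and 40890 CPM of Cst3, against 22912 and 55575 CPM in cells of 4000 to 8000 UMIs, and the ratio was 1.22 and 2.43. In the lower bin the protease sum was 29031 in hCD33m, 35158 in hCD33M and 34888 in control. In the upper bin it was 22501, 22727 and 23540, so that the libraries were closer there. The lower bin held 335 cells of hCD33m, 578 of hCD33M and 524 of control, and the 2 unnamed clusters held 12.4% of hCD33m cells, against 20.8% of hCD33M and 20.8% of control cells. Within the bin of 4000 to 8000 UMIs the ratio was 2.53 in hCD33m, 2.37 in hCD33M and 2.36 in control, and hCD33m was also the highest in each of the other 5 bins of microglia-like cells. The bin below 1000 UMIs held only 36, 41 and 51 such cells. Over all cells kept it held 497, 787 and 832, and control was highest there, at 1.347 against 1.250 in hCD33m and 1.253 in hCD33M. In the deeper bins of all cells kept hCD33m was again the highest.

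**Figure D3:**
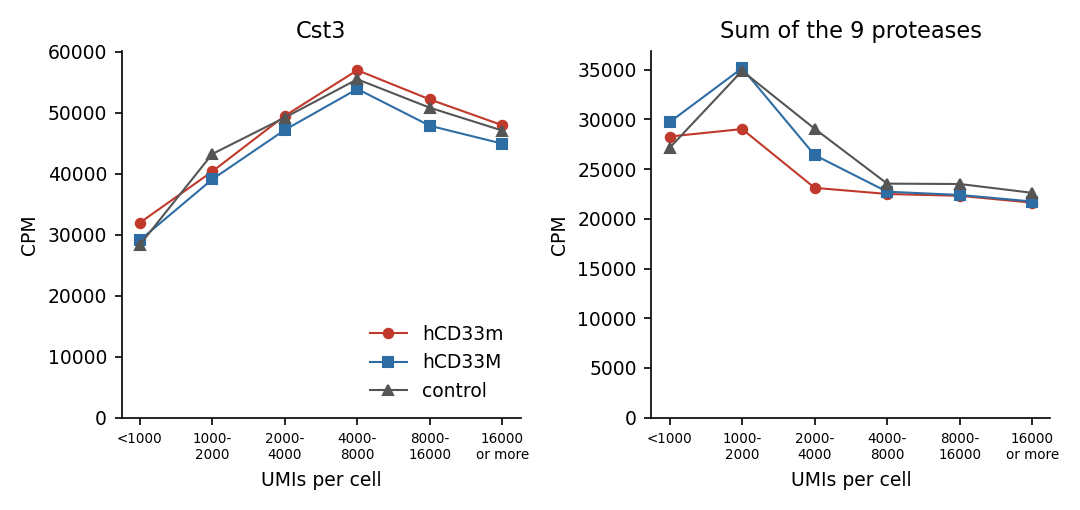
Levels of Cst3 (left) and of the sum of the 9 proteases (right) in microglia-like cells grouped by UMIs per cell, as CPM, with 1 line per library. The protease sum is highest at 1000 to 2000 UMIs in hCD33m, hCD33M and control, with the hCD33m line lowest there at 29031, and Cst3 peaks at 4000 to 8000 UMIs.

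The question of the study design is whether either isoform changes microglial expression. In microglia-like cells none of the 10 genes differed by 1.5-fold or more with an interval clear of no change, in hCD33m against control (1.18% of 6789 genes tested did), in hCD33M against control (0.988% of 6783) or in hCD33m against hCD33M (0.665% of 6765). This is a rule of size on single libraries and not a test. In hCD33m against control the interval lay below 0 for 8 of 10 genes and above 0 for 1, against 43.6% below and 32.5% above among 732 genes of at least 200 CPM, since at such counts most intervals leave out 0. Of the 8, Ctsa and Ctss were at -0.038 and -0.013, and in cells of 4000 to 8000 UMIs they were above 0, at 0.013 and 0.039. The median log2 ratio of the 10 genes was -0.15, against 0.01 over all genes tested and -0.02 over the 732, whose quartiles were -0.09 and 0.06. In hCD33M against control the interval lay below 0 for 9 of 10, against 44.1% of 735 genes of at least 200 CPM. The median of the 10 was -0.08 there, inside the quartiles of those 735 genes (-0.10 and 0.07). The comparisons share the control library, so their common direction is not independent evidence.

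Ctsc differed most. Its level of 421.5 CPM in hCD33m was lower than the 511.9 in hCD33M and the 518.8 in control, a log2 ratio of -0.30 (-0.33 to -0.27) to control and -0.28 to hCD33M, whereas hCD33M over control was -0.02. Within the 8 microglia-like clusters the log2 ratio of hCD33m over control ran from -0.48 to -0.23 with every interval below 0, and over hCD33M from -0.34 to -0.24, again below 0 in 8 of 8. The clusters are parts of the same libraries, so their common direction is not independent evidence. The share of all genes with such a pattern over the clusters was not computed. Among cells of 4000 to 8000 UMIs the log2 ratio of hCD33m over control was -0.27. Of 8 reference genes restricted to microglia, whose median log2 ratio in hCD33m over control was -0.03, Olfml3 at -0.35 and Fcrls at -0.29 differed by a like amount and the other 6 lay between -0.07 and 0.05. None of the 8 microglia-like clusters reached 1.5-fold for any of the 10 genes in any of the 3 comparisons.

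Ctsd was lower in hCD33m, with log2 ratios of -0.18 to control and -0.17 to hCD33M, while hCD33M over control was -0.01. Within clusters the interval of Ctsd in hCD33m over control lay below 0 in 7 and above 0 in 1. Ctsl was lower in both transgenic libraries, with -0.17 for hCD33m over control and -0.17 for hCD33M over control. The interval of Ctsl in hCD33M over control lay below 0 in 8 of 8 clusters. As for Ctsc, the clusters share the libraries and these counts have no share over all genes beside them. Ctsf, Ctsz and Lgmn were lower in both, at -0.19, -0.16 and -0.14 in hCD33m and at -0.11, -0.10 and -0.08 in hCD33M. Ctss was at -0.01 in hCD33m and -0.11 in hCD33M, Ctsb at 0.01 and -0.06, and Ctsa at -0.04 and -0.05. Cst3 was 0.03 higher in hCD33m and fell by 0.08 in hCD33M on the log2 scale. The differences of Ctsd, Ctsl and Lgmn in hCD33m were smaller at matched depth, where the log2 ratios of hCD33m over control were -0.13, -0.11 and -0.09.

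**Figure D4:**
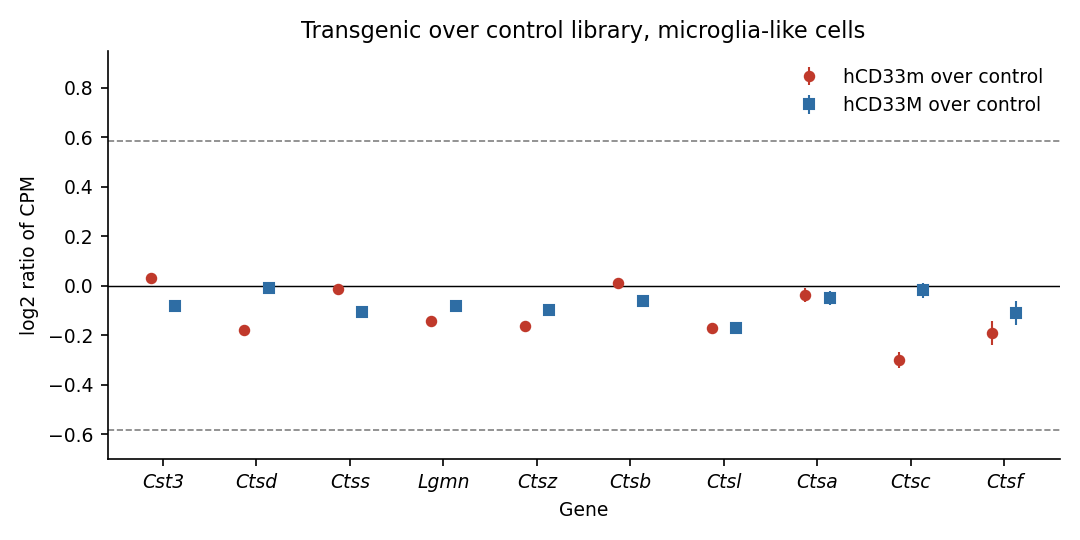
Log2 ratio of CPM in microglia-like cells, hCD33m over control (circles) and hCD33M over control (squares), with 95% intervals for counting error. The solid line marks no difference and the dashed lines 1.5-fold. All points lie between -0.30 and 0.03, inside the dashed lines.

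Other genes of the lysosome are given for comparison, and with 1.18% of all genes past 1.5-fold in hCD33m and 0.988% in hCD33M, counts of 0 in lists of this size are near the background. Of 27 lysosomal hydrolases tested, 0 passed 1.5-fold in hCD33m against control, with a median log2 ratio of -0.07, and 0 in hCD33M, with -0.05. None of 17 lysosomal membrane proteins and activators passed, with medians of -0.0031 in hCD33m and -0.06 in hCD33M, and Grn, the precursor of granulins, stood at 1085, 1171 and 1225. None of 14 subunits of the V-ATPase, which acidifies the lysosome, passed in either comparison, with medians of 0.03 and -0.0047, and Atp6ap2 had the largest difference in hCD33m, at 221.2, 253.3 and 267.7 CPM. None of 9 sorting genes, 4 transcription factors (Tfeb, Tfe3, Mitf and Spi1) or 3 genes of MHC class II processing passed. Tfeb stood at 32.4, 33.3 and 28.8 and Spi1, which encodes PU.1, at 459.5, 429.0 and 463.1.

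Cathepsins outside the 10 were Ctsh, at 842 CPM in hCD33m, 916 in hCD33M and 948 in control, and Ctso, at 108, 107 and 120, and neither passed 1.5-fold. Ctsh thus stood above Ctsa, Ctsc and Ctsf in level. Ctse, Ctsk and Ctsw each stayed under 1 CPM. Among other cystatins, Cstb, a cytosolic inhibitor, stood at 81.0, 74.9 and 75.6. Cst7, which encodes cystatin F, an inhibitor that acts inside lysosomes and targets cathepsin C, stood at 30.2 in hCD33m, 18.0 in hCD33M and 20.6 in control. Its log2 ratio was 0.75 (0.60 to 0.90) in hCD33m over hCD33M, past 1.5-fold, and 0.55 (0.41 to 0.70) in hCD33m over control, which did not reach it. Cst7 is among the leading genes of cluster 7. That cluster held 205 of 5163 microglia-like cells in hCD33m, 151 of 4456 in hCD33M and 143 of 4591 in control. The part of cluster make-up in the Cst7 ratios was not tested.

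Counted per cell after each cell was thinned to 1600 UMIs, detection followed the levels. Cst3 was found in 100% of thinned microglia-like cells in every library, with a median of 83 UMIs in hCD33m, 77 in hCD33M and 81 in control. Ctsd and Ctss were found in at least 99.9% of cells and Lgmn in at least 99.1%. Ctsc was found in 49.9% of 4946 hCD33m cells, against 54.5% of 4104 hCD33M cells and 54.7% of 4269 control cells, and Ctsf in 28.0%, 29.3% and 32.1%. Without thinning the shares were 84.4%, 86.4% and 87.0% for Ctsc and 64.7%, 64.7% and 66.7% for Ctsf. Thinning left out 217, 352 and 322 cells of fewer UMIs. As a background, 3.75% of 80 thinned monocyte-like cells had a Ctsf UMI, at a median of 9290 UMIs per cell before thinning in that class and 5062 in microglia-like cells. The variance over cells was 8.96 to 9.63 times the mean for Cst3 and 2.31 to 2.91 times for Ctsd, where counting alone gives a value near 1. This measure grows with the level, so it was not compared between genes. Cst3 and Ctsd thus varied between cells by more than counting error. Over the 45 pairs of genes, Pearson correlations across thinned cells ran from -0.08 to 0.27, weak in each library, where counts are sparse and cells share a library.

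Across the 12 clusters, the genes with the pattern most like that of Cst3 among 3622 genes over 50 CPM were Rdh14, Tmem5, Dhrs7b, Fam3a and Sparc, with Pearson correlations of 0.98, 0.98, 0.98, 0.97 and 0.97. For the protease sum they were Hacd2, Ddrgk1, Jagn1, Tmem37 and Saraf, with 0.99, 0.98, 0.98, 0.98 and 0.98. Ctsc followed Cst3 least of the proteases, at 0.49, and Ctsl most, at 0.92. These are descriptions over 12 points that share the 3 libraries and differ in depth.

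In the class with markers of border-associated macrophages, the macrophages of meninges and perivascular spaces, most of the genes were lower than in microglia-like cells and Ctsc was higher. In that class Cst3 stood at 36636 CPM in hCD33m, 33736 in hCD33M and 32159 in control, or 68.3% of the level in microglia-like cells over the pooled libraries, and Ctsd, Ctsl and Lgmn stood at 69.6%, 67.8% and 76.3%. Ctsc ran the other way, at 182% (175% to 190%), with 749 CPM in hCD33m, 953 in hCD33M and 1075 in control. Ctsb stood at 128%. Ctss and Ctsd shared first place, at 5147 and 5085 with intervals that overlapped, and Ctss was above Ctsd in hCD33m only. The 10 listed microglial markers also summed to 17740 CPM there, and 8 microglia-restricted reference genes stood at 63.4% to 80.0% of their microglia-like level, and the part of microglial RNA or of joined cells in these values was not tested.

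**Figure D5:**
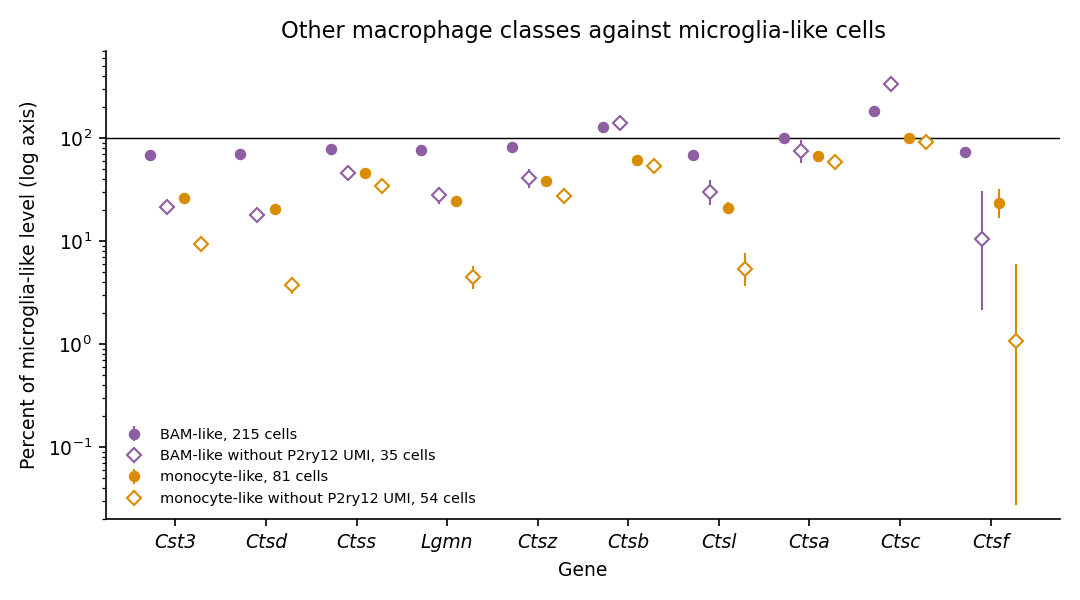
Level of each gene in border-associated macrophage-like (BAM-like) and monocyte-like cells as a percent of its level in microglia-like cells, on a log axis, for all cells of the class (filled circles) and for cells without a P2ry12 UMI (open diamonds), with 95% intervals. Ctsc is above 100% in both sets of BAM-like cells, and Ctsd, Lgmn, Ctsl and Ctsf are lowest in monocyte-like cells without P2ry12.

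Cells of that class without a UMI of P2ry12, a receptor of microglia, were therefore set apart, a step added after the data were seen. There were 35 of them, and of the 7 other reference genes 6 stood at 0% to 14.2% of their microglia-like level, whereas Fcrls stood at 58.0%. In these cells Ctsc stood at 335% of its microglia-like level (292% to 383%) and Ctsb at 140%, while Cst3 stood at 21.4%, Ctsd at 17.7%, Ctsl at 29.9%, Lgmn at 27.6% and Ctss at 45.8%. Ctsc was 1496 CPM in hCD33m, 1864 in hCD33M and 1614 in control, with intervals that overlapped. Cst3 and the proteases were then level, with 1.02 Cst3 UMIs per protease UMI (0.949 to 1.10), against 1.86 in the whole class. The 35 cells were shallower, with a median of 3681 UMIs against 8504 in the whole class, and the part of depth in this ratio was not tested.

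The monocyte-like class had less of most of the genes. Over all 81 cells Cst3 stood at 26.1% of its microglia-like level, Ctsd at 20.2%, Ctsl at 20.9%, Lgmn at 24.4% and Ctsf at 23.4%, against 98.7% for Ctsc, 66.4% for Ctsa and 60.3% for Ctsb. Microglia-restricted genes stood at 18.1% to 25.5% there. Of the 81 cells, 54 held no P2ry12 UMI, with a median of 8669.5 UMIs against 9290 in the whole class, and in these the 7 other reference genes stood at 1.02% to 1.78%. In those 54 cells Ctsd stood at 3.70% (3.06% to 4.44%), Lgmn at 4.41%, Ctsl at 5.38% and Ctsf at 1.08%, from 1 UMI. Cst3 stood at 9.21%, above the reference genes. Ctss stood at 34.2%, Ctsz at 26.9%, Ctsb at 53.3%, Ctsa at 58.0% and Ctsc at 90.2% (77.7% to 104%). The proteases thus split, with Ctsd, Lgmn, Ctsl and Ctsf at the low end and Ctsa, Ctsb and Ctsc at the high end. Cst3 and the proteases were about level, with 0.961 Cst3 UMIs per protease UMI (0.904 to 1.02).

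In those cells Cst3 stood at 4454 CPM in hCD33m, 5585 in hCD33M and 4372 in control, with the interval of hCD33M above the others. Ctsd stood at 238, 285 and 317 and Ctss at 2168, 2267 and 2397, each with intervals that overlapped. Ctsc stood at 313 (243 to 398), 393 (280 to 535) and 696 (551 to 868), so that control was above both transgenic libraries, in 29 cells of hCD33m, 14 of hCD33M and 11 of control. Ctsc was thus lowest in hCD33m in the microglia-like, border-associated macrophage-like and monocyte-like classes, although the intervals of hCD33m and hCD33M overlapped in monocyte-like cells, and all 3 overlapped in the border-associated cells without P2ry12. In hCD33m, hCD33M and control it stood at 669, 937 and 868 CPM in unnamed cluster 4. In unnamed cluster 5 it stood at 230, 220 and 244, where hCD33m was not the lowest. These classes come from the same libraries, so they are not independent evidence.

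In all 81 monocyte-like cells, by contrast, the hCD33M library stood apart, with Cst3 at 8280 CPM in hCD33m, 22393 in hCD33M and 9999.6 in control. P2ry12 stood at 293 in hCD33m, 1502 in hCD33M and 466 in control, and 3 cells gave 93.7% of it in hCD33M, 1 of them with 231 P2ry12 UMIs. In the cells without P2ry12 the values of Cst3 were those given above.

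The 2 unnamed clusters of few UMIs differed from each other. Cluster 4, with a median of 1040 UMIs, had the protease sum at 179% of its microglia-like level and Cst3 at 106%, or 1.31 Cst3 UMIs per protease UMI. Its microglia-restricted genes stood at 40.2% to 192%. Cluster 5, with a median of 721 UMIs and led by Gm26917 and AY036118, had the proteases at 27.9% and Cst3 at 23.3%, and held 3.39% of hCD33m cells, against 8.16% of hCD33M and 11.8% of control cells. The order from Ctsd to Lgmn was the same in both as in microglia-like cells. Cst3 UMIs per protease UMI in hCD33m, hCD33M and control were 1.357, 1.234 and 1.364 in cluster 4 and 1.86, 1.98 and 1.75 in cluster 5. The hCD33m library was thus not the highest in either, though in each its interval overlapped that of the highest library.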

How the data were processed

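Single-cell RNA sequencing was done on microglia sorted from 3 genotypes, with 1 library each. The values are raw UMI counts per gene and cell, deposited by the authors, who ran Cell Ranger against mm10 and loaded its output in Seurat. On loading, cells had to show over 200 genes and a gene had to be seen in 3 or more cells. The annotation release was not given in the sources used here. Because introns, near-identical genes and overlapping genes are treated by the aligner's settings, these settings bear on every level.

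From these counts, cells of at most 8000 genes and 10% mitochondrial UMIs were kept. The tables held 6257 barcodes of hCD33m, 5920 of hCD33M and 6163 of control. The stated filter left more cells here than the study went on with, so the cells analysed differ. A set of 3 barcodes with over 10% of UMIs from S100a8 and S100a9 was set aside after the data were seen. Counts were scaled to 10000 per cell and logged. Mitochondrial genes and a set list of genes, with the 10 members in it, were left out. From the rest 2000 variable genes were reduced to 15 principal components. A graph of 20 neighbours was clustered with Leiden at a resolution of 0.8 (scanpy 1.11.5, leidenalg 0.10.2). A cluster was named from at least 3 listed markers, each over 20 CPM and reaching 50% of the level in the cluster where it was highest, and stayed unnamed where its median UMI count was under 1 in 3 of that of its libraries with none of those markers among its 10 leading genes. No doublet caller was run. Names were rebuilt here and may differ from those of the study.

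Counts were summed per class and library and divided by all UMIs of the sum, as counts scaled to 1000000 UMIs (CPM). Levels have exact Poisson intervals, ratios exact conditional binomial intervals and shares exact Clopper-Pearson intervals, all at 95% (scipy 1.17.1). A gene with at least 20 CPM in 1 library was called at 1.5-fold where its interval was clear of no change. The rule was run on simulated counts that vary by counting error alone. These hold no variation between animals or libraries, so the run cannot show how the rule fares on single libraries. TMM factors were from edgeR 4.0.16. Named genes were the 10 members, up to 4 genes of each list with the largest difference and up to 2 with the highest level, and the 5 genes most like Cst3 or the protease sum. Other genes named for contrast were chosen after their values were seen. The members and lists were chosen with earlier results of these data known.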

Additional observations from a re-analysis of the deposited data

Results flagged for a closer look

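Ctsd, Ctsl, Lgmn and Cst3 differed between libraries in another way in monocyte-like cells than in microglia-like cells. The share of all genes that did so was not computed, so these genes have no background to be set against. As given above, a few cells gave 93.7% of the P2ry12 UMIs of the monocyte-like cells in hCD33M. The difference between the classes was not tested, since there is 1 library per genotype. The log2 ratio of hCD33M over control was 1.89 in monocyte-like and -0.01 in microglia-like cells for Ctsd, 1.10 and -0.17 for Ctsl, 1.27 and -0.08 for Lgmn, and 1.16 and -0.08 for Cst3. For Cst3 the log2 ratio of hCD33m over hCD33M was -1.44 in monocyte-like and 0.11 in microglia-like cells. The 10 microglial markers summed to 3378 CPM in the monocyte-like cells of hCD33m, 11070 in those of hCD33M and 4225 in those of control. In the monocyte-like cells without a P2ry12 UMI, Ctsd stood at 238 CPM in hCD33m, 285 in hCD33M and 317 in control, and Cst3 at 4454, 5585 and 4372.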

How the results depend on the processing

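None of the 10 genes passed 1.5-fold in any comparison of microglia-like cells under the 11 planned settings or the 2 settings added after the data were seen. The largest log2 difference was 0.38 in size, for Ctsc in hCD33m against control with a mean of per-cell values. Of 30 log2 ratios, 24 kept their direction in all settings, and 0 of 243 protease ranks moved. The ratios that did not were those of Ctsa, Ctsb and Ctss in hCD33m over control, Ctsd in hCD33M over control, and Ctsa and Ctsl in hCD33m over hCD33M.

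The number of Cst3 UMIs per protease UMI moved beyond its counting interval, and hCD33m stayed highest each time. In hCD33m, hCD33M and control it was 2.34, 2.10 and 2.13 with no filter, 2.37, 2.16 and 2.17 with at least 2000 UMIs per cell, 2.36, 2.13 and 2.15 with at most 5% mitochondrial UMIs, 2.31, 2.07 and 2.09 over all cells, 2.38, 2.19 and 2.21 at a Leiden resolution of 0.4, and 2.30, 2.03 and 2.05 as a median over cells. With the members among the variable genes it was 2.14 in control. The added settings gave 2.53, 2.37 and 2.36 in cells of 4000 to 8000 UMIs and 2.38, 2.19 and 2.21 without the microglia-like cluster of fewest UMIs. The last setting held 4771, 3627 and 3795 cells and the resolution of 0.4 held 4778, 3632 and 3794. Their like values are thus not to be read as separate checks.

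With at least 2000 UMIs, Cst3 stood at 51298 and the proteases at 22886 CPM in microglia-like cells, and at a resolution of 1.2 the proteases stood at 23112 there and Cst3 at 35179 in border-associated macrophage-like cells. With no minimum level, listed genes passed 1.5-fold where 0 had: in hCD33m against control 1 other cathepsin (Ctsw), 1 V-ATPase gene (Atp6v0c) and 1 MHC class II gene (H2-Aa); in hCD33M against control 1 other cathepsin (Ctsk), 1 lysosomal membrane gene (Lgals3) and 1 MHC class II gene (H2-Aa); in hCD33m against hCD33M 2 other cathepsins (Ctse and Ctsk), 1 lysosomal membrane gene (Lgals3) and 1 V-ATPase gene (Atp6v0c). These genes are below 20 CPM. The share of all genes past 1.5-fold with no minimum level was not computed, so these counts have no background to be set against. No paired analysis was possible because each genotype is 1 library with no test across samples, and no replicate could be left out. Values in the monocyte-like class rest on 19 to 40 cells per library.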
